A study of Homo sapiens with 12 samples.

Results

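The proteasome subunit and assembly genes were examined in PANC-1 cells with a hairpin against TIMP1 and in cells with the empty vector. Members were all probes whose platform gene symbol begins with PSMA, PSMB, PSMC, PSMD, PSME, PSMF or PSMG followed at once by a digit. The rule found 77 probes of 48 genes, among 20046 genes named on the array. It uses symbols alone, so it also took in 4 genes that encode no part of the proteasome. These were PSMC3IP, a meiotic recombination factor, PSME3IP1, a protein that binds PSME3, and the antisense transcripts PSMD6-AS2 and PSMG3-AS1. PSMA7, PSMC5, PSMD7 and PSMD13, which encode further subunits, had no probe named here and were not analysed here.

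The proteasome is the barrel-shaped protease that degrades ubiquitin-tagged proteins. Its core particle stacks rings of alpha subunits, which gate the entrance, on rings of beta subunits, some of which cut peptide bonds. A regulatory particle with a base of ATPases and a lid receives the substrate, removes ubiquitin and unfolds the protein. Interferon signalling replaces the constitutive cutting subunits PSMB5, PSMB6 and PSMB7 by PSMB8, PSMB9 and PSMB10, and the resulting immunoproteasome makes peptides for antigen presentation. When proteasome activity is short, the transcription factor NFE2L1 raises subunit genes together through antioxidant response elements in their promoters.

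PANC-1 is an established line from a human carcinoma of the pancreatic duct. The 6 knockdown samples were PANC-1 cells with a lentivirally integrated pLKO.1 vector that expresses a short hairpin RNA against human TIMP1, a secreted inhibitor of metalloproteinases. The 6 control samples, titled WildType, carry the integrated pLKO.1 puro vector, so they are vector cells and not untouched ones. All were grown in medium with puromycin, which kills cells without the vector. Total RNA was measured on Illumina arrays, 1 array per sample. The labels name 1 line and do not say whether each replicate was its own culture. The p-values therefore rest on differences among these samples that may be technical. In such bulk samples, fewer cells with a transcript and less transcript per cell cannot be told apart.

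The motif that NFE2L1 and related factors bind was looked for in RefSeq promoter sequence (assembly GRCh38.p14), in the 250 bases before each gene's start. Of the 41 proteasome genes with a detected probe, 36 had a promoter there, some with more than 1 start, which gave 43 windows. PSMB1, PSMB6, PSMB7, PSMD4 and PSMG3 had no window, so they were not searched for any motif. The antioxidant response element core, TGACNNNGC on either strand, was in 12 of 43 windows (27.9%), against 3830 of 35116 windows of all genes (10.9%). Its 12 genes were PSMA4, PSMB3, PSMB9, PSMD3, PSMD5, PSMD9, PSMD12, PSME1, PSME2, PSME4, PSMG1 and PSMG2. The following stretches hold it, with the matches to the core in capitals on either strand. PSMB3 is shown as a core ring gene and the other 6 because their array values are given in full further on, which follows from their small p or, for PSMB9, from its cutting role. Each is written 5′ to 3′ on the gene's own strand.
PSMB3, chr17:38752611-38752670, plus strand, 130 to 71 bases before the start: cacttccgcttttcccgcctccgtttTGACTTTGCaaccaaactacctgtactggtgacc
PSMD3, chr17:39980747-39980806, plus strand, 60 to 1 bases before the start: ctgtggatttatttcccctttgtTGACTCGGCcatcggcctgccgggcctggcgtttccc
PSMD9, chr12:121888630-121888709, plus strand, 160 to 81 bases before the start, with 2 matches: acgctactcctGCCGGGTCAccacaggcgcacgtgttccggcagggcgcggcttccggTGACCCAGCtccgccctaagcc
PSMD12, chr17:67366708-67366767, minus strand, 190 to 131 bases before the start: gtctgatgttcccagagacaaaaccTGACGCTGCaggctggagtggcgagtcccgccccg
PSME4, chr2:53970994-53971053, minus strand, 60 to 1 bases before the start: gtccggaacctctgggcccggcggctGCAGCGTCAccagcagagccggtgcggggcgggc
PSMG1, chr21:39183602-39183661, minus strand, 210 to 151 bases before the start: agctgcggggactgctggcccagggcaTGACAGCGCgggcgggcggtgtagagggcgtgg
PSMB9, chr6:32854012-32854071, plus strand, 180 to 121 bases before the start: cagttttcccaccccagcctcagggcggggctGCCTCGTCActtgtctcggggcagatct
A match is a run of letters and was not tested as a binding site.

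The interferon response core GAAANNGAA, searched on both strands, was in 5 of 43 member windows (11.6%), against 6.88% of all windows. The gamma-activated site core TTCNNNGAA, which reads the same on both strands, was in 6 member windows (14.0%), against 6.57% of all. The CCAAT box, CCAAT on either strand, was in 16 member windows (37.2%), against 32.0% of all. No matches of different motifs overlapped in a member window. PSMB10, PSME2 and PSMG4 share the same 9 letters for the interferon response core, capitalised in these stretches. PSMB10 and PSME2 belong to the interferon-inducible proteasome, but so do PSMB8, PSMB9 and PSME1, whose windows lacked this core. It was also in windows of PSMA4, an alpha ring gene, and PSMB4, a constitutive beta gene.
PSMB10, chr16:67936851-67936910, minus strand, 60 to 1 bases before the start: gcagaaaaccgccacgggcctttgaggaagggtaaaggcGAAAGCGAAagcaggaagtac
PSME2, chr14:24146611-24146670, minus strand, 60 to 1 bases before the start: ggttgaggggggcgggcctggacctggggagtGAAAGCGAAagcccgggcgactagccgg
PSMG4, chr6:3258887-3258946, plus strand, 60 to 1 bases before the start: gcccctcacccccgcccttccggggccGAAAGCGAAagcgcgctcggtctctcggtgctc

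Values are log2 intensities after background correction and quantile normalisation, and a fold change is the knockdown mean minus the control mean on that log2 scale. A probe counted as detected if at least 6 of the 12 arrays gave it a detection p under 0.05, and the detected probe with the highest mean stands for its gene. Knockdown arrays detected 15898 to 17680 probes each and control arrays 15681 to 16565, and the number of arrays limits the precision. Knockdown 2 and knockdown 6 detected the most probes, with 17360 and 17680. The hairpin's target had a median log2 intensity of 13.56 in knockdown arrays (13.49 to 13.63) and 13.75 in control arrays (13.64 to 13.86). TIMP1 was thus below every control value on all 6 knockdown arrays, by 0.19 ± 0.04 (log2, SE) or 12.5%. An exact two-sided permutation test gave p = 0.00216, the smallest that 6 arrays per group allow, while limma's adjusted p was 0.101. The duct epithelial markers KRT7, KRT8, KRT18, KRT19 and SOX9 were all detected. PTPRC, CD3E and CD74 of leukocytes and COL1A1, COL1A2, DCN and LUM of fibroblasts were detected on no array, and CD14 was the 1 leukocyte marker of 5 that passed. The CD14 probes differed by 0.12 ± 0.07 (limma adjusted p = 0.444) and 0.31 ± 0.12 (adjusted p = 0.281). Of 5 acinar and islet markers, CPA1, INS and GCG were detected on no array and only PRSS1 passed. LYZ of leukocytes, PDGFRB of fibroblasts and AMY2A of acinar cells were detected on at least 1 array without passing the filter. PRSS1 was below every control value on all 6 knockdown arrays (-0.19 ± 0.05, adjusted p = 0.118). The part of these markers in the member values was not tested.

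None of the detected proteasome probes passed the test between knockdown and control cells. Of the 77 member probes, 63 passed the detection filter and 14 did not, 11 of them on no array. With limma and Benjamini-Hochberg adjustment over all 16495 detected probes, 0 of 63 member probes had an adjusted p under 0.05, against 50 of 16495 probes (0.303%). Counted by gene, 0 of 43 were called, against 38 of 9780 genes (0.389%). At an unadjusted p under 0.05 there were 3 of 63 member probes, against 14.5% of all probes. They belonged to PSMD6, PSMB6 and PSMB10, that is 3 of 43 genes, against 15% of all genes. Knockdown and control arrays did not overlap for 0 of 63 member probes, against 258 of 16495 probes (1.56%). The background share of 0.303% amounts to less than 1 probe in 63.

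The intervals of the member genes were narrow. The median log2 fold change of the 43 genes was 0.013, beside 0.016 for all 9780 detected genes. The members ranged from -0.10 for PSMD4 to 0.15 for PSMD9, with 22 above 0 and 21 below. For 40 of the 43 genes (93.0%) the 95% confidence interval lay within 1.2-fold in either direction, against 64.7% of all detected genes. The exceptions were PSMD9, PSMB9 and PSMC3IP, and the bound of 1.2 was chosen after the values were seen. The member genes' median residual SD between arrays of a group was 0.073 (log2), against 0.106 for all genes. Their probes were also bright, with a median log2 intensity of 12.19 against 9.24, and the part of brightness in the narrow intervals was not tested.

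**Figure D1:**
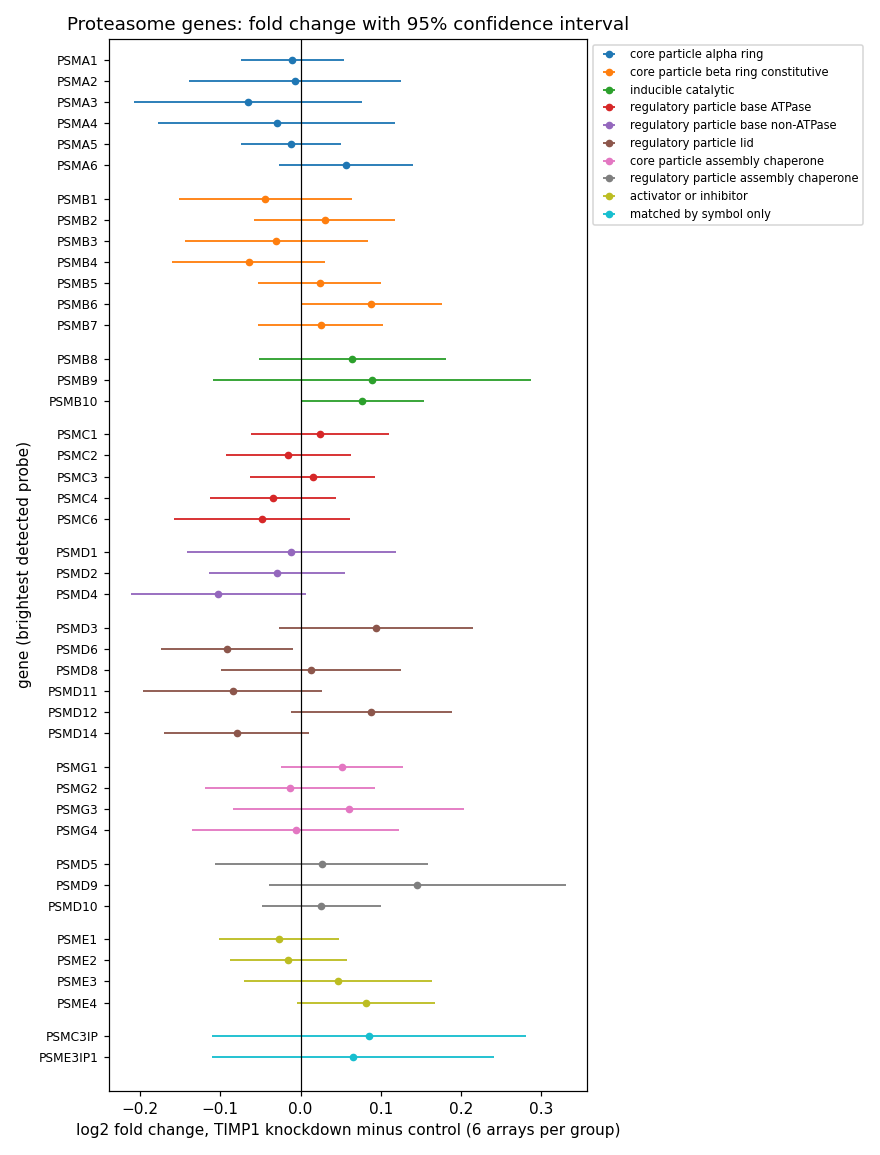
Log2 fold change (knockdown minus control, x axis) of the 43 genes with a detected probe, 1 line per gene, grouped and coloured by role; points are limma estimates and bars 95% confidence intervals from 6 arrays per group. Estimates lie between -0.10 and 0.15, and the intervals of PSMD6, PSMB6 and PSMB10 exclude 0 before adjustment over all probes.

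The inducible cutting subunits lay slightly higher in knockdown cells on their brightest probes, and none of the 3 passed the test. PSMB8, the inducible partner of PSMB5, ranged from 10.13 to 10.35 with a median of 10.24 in knockdown arrays, and from 10.06 to 10.28 with a median of 10.18 in control arrays (0.06 ± 0.05, SE, limma adjusted p = 0.603). PSMB9, the partner of PSMB6, ranged from 7.90 to 8.28 with a median of 8.10 in knockdown arrays and from 7.79 to 8.27 with a median of 8.0 in control arrays (0.09 ± 0.09, adjusted p = 0.682). For both genes, 1 knockdown array exceeded every control array and the rest overlapped them. PSMB10, the partner of PSMB7, ranged from 12.18 to 12.27 with a median of 12.25 in knockdown arrays, and from 12.11 to 12.25 with a median of 12.16 in control arrays. Its fold change was 0.08 ± 0.04 (adjusted p = 0.344), and 3 knockdown arrays lay above every control array, of which control 1 was the highest.

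Of the constitutive cutting subunits, PSMB6 stood apart the most. PSMB6, which cuts after acidic residues, ranged from 13.52 to 13.70 with a median of 13.61 in knockdown arrays, and from 13.46 to 13.57 with a median of 13.51 in control arrays. The difference was 0.09 ± 0.04 (limma, unadjusted p = 0.0495, adjusted p = 0.343). All 6 knockdown arrays exceeded the control median, and 4 exceeded every control array. PSMB7, which cuts after basic residues, ranged from 13.39 to 13.51 (median 13.46) in knockdown arrays and from 13.39 to 13.52 (median 13.42) in control arrays. PSMB5, which cuts after hydrophobic residues and is the main target of bortezomib, ranged from 13.04 to 13.14 (median 13.09) in knockdown arrays and from 12.98 to 13.14 (median 13.08) in control arrays. Both had a fold change of 0.02 ± 0.04, with limma adjusted p of 0.777 for PSMB7 and 0.786 for PSMB5, and no knockdown array of either lay outside the control range.

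The exchange of constitutive for inducible subunits was compared within arrays, as the log2 value of the inducible gene minus that of its partner. Only the change of this quantity between groups can be read, since probes differ in brightness. It was 0.04 higher in knockdown arrays for PSMB8 minus PSMB5 (95% interval -0.06 to 0.15, exact two-sided permutation p = 0.394), and 0.019 to 0.064 when 1 array was left out. For PSMB10 minus PSMB7 it was 0.05 higher (interval -0.03 to 0.14, exact permutation p = 0.195), and 0.035 to 0.078 when 1 array was left out. For PSMB9 minus PSMB6 it was 0.0007, with an interval of -0.18 to 0.19 and an exact permutation p of 1. After Benjamini-Hochberg adjustment over the 3 pairs, the exact permutation p-values were 0.591 for PSMB8, 0.584 for PSMB10 and 1 for PSMB9.

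**Figure D2:**
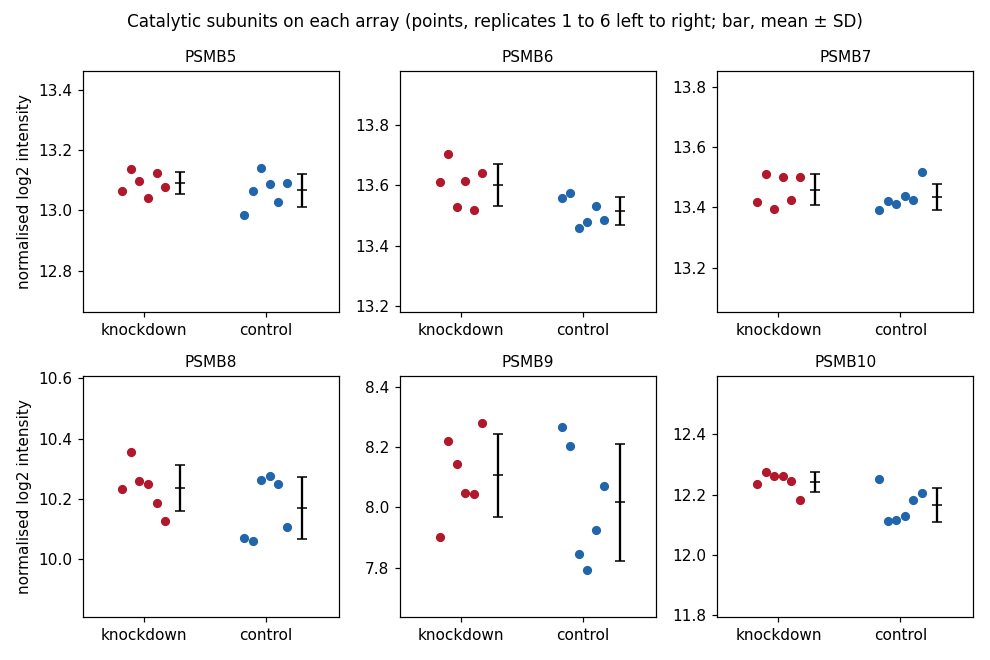
Normalised log2 intensity (y axis, the same span in each panel) of the 6 cutting subunits, knockdown arrays at left and control arrays at right; points are arrays, replicates 1 to 6 from left to right, and bars give the mean ± SD. The groups overlap in every panel, and 4 of 6 knockdown arrays of PSMB6 lie above all its control arrays.

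The values of PSMB8 and PSMB9 depended on the probe. PSMB8, which lies beside PSMB9 on chromosome 6, had 4 detected probes with fold changes from -0.10 to 0.09. The probe at 0.09 was detected on 6 knockdown and 2 control arrays, so it met the filter mainly through the group in which it was higher, and the next was at 0.08. The PSMB9 probe given above differed by 0.09, while its dimmer probe differed by -0.31 ± 0.19 (limma adjusted p = 0.459). That dimmer probe ranged from 6.76 to 8.09 with a median of 7.35 in knockdown arrays and from 7.49 to 7.94 with a median of 7.68 in control arrays. The knockdown arrays thus spanned more than the whole control range. The direction of PSMB9 is therefore uncertain in these data.

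Probes of a gene differed in sign for other members too. Of the 14 genes with more than 1 detected probe, 6 had fold changes of 1 sign on all probes and 8 had both signs. Both probes of PSMD6 were lower in knockdown cells, by -0.09 and -0.07, and both probes of PSME3 gave 0.04 to 0.05. All 3 probes of PSMD10 were above 0, from 0.03 to 0.11. The 3 probes of PSMC4, an ATPase of the base, went from -0.14 to 0.04, and the 3 of PSMD4 from -0.10 to 0.0037. PSMG1 had 0.05 on the brighter probe and -0.06 on the other. The median range between probes of a gene was 0.08.

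**Figure D3:**
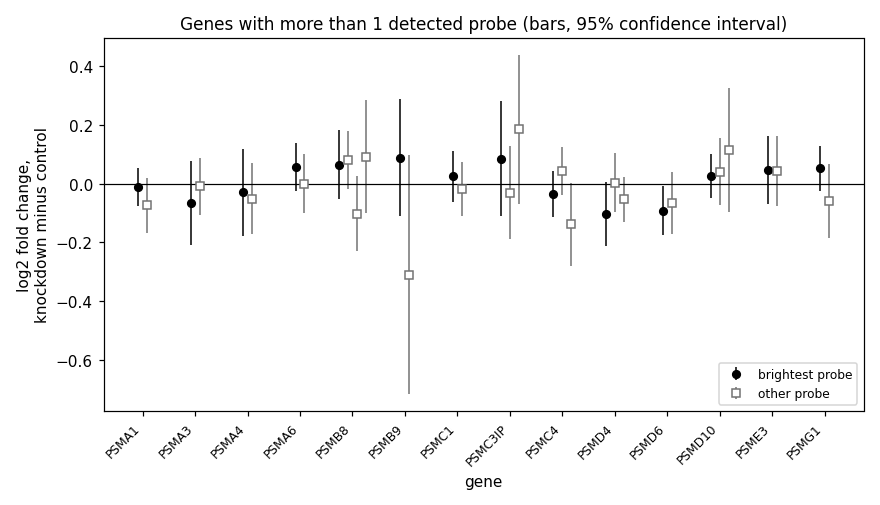
Log2 fold change (knockdown minus control, y axis) of each detected probe of the 14 genes with more than 1; filled circles are the brightest probe, open squares the others, and bars 95% confidence intervals from 6 arrays per group. The probes of 8 genes lie on both sides of 0, and those of PSMB9 are farthest apart, at 0.09 and -0.31.

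The other core ring genes differed little. In the alpha ring, 6 genes had a detected probe, 1 above 0 and 5 below, with a median of -0.01 and a range from -0.07 for PSMA3 to 0.06 for PSMA6. PSMA6 ranged from 13.47 to 13.61 with a median of 13.49 in knockdown arrays, and from 13.37 to 13.52 with a median of 13.48 in control arrays (0.06 ± 0.04, limma adjusted p = 0.513). Only 2 knockdown arrays of PSMA6 exceeded the control range. The 7 constitutive beta genes, among them the noncatalytic PSMB1, PSMB2, PSMB3 and PSMB4, had a median of 0.02 and a range from -0.06 for PSMB4 to 0.09 for PSMB6. The named probes of PSMA8, known from testis, and of PSMB11, known from the thymus cortex, were detected on no array.

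In the base of the regulatory particle, which holds the ATPase ring, the 5 detected ATPase genes lay between -0.05 for PSMC6 and 0.02 for PSMC1. The 3 non-ATPase genes PSMD1, PSMD2 and PSMD4 were all below 0. PSMD4, a receptor for ubiquitin chains, ranged from 11.94 to 12.22 with a median of 12.17 in knockdown arrays, and from 12.18 to 12.32 with a median of 12.23 in control arrays. Its fold change was -0.10 ± 0.05 (limma adjusted p = 0.372), with 4 knockdown arrays below every control array and knockdown 4 far below the others. Without knockdown 4 it was -0.06. Its second brightest probe differed by 0.0037 ± 0.05 (limma adjusted p = 0.979).

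The lid, which carries the deubiquitinase and structural subunits, held the member with the smallest p. PSMD6, a structural lid subunit, ranged from 12.23 to 12.36 with a median of 12.26 in knockdown arrays, and from 12.31 to 12.44 with a median of 12.36 in control arrays. The difference was -0.09 ± 0.04, or -6.19% with a 95% interval from -11.4% to -0.66% (limma, unadjusted p = 0.0316, adjusted p = 0.301). No knockdown array exceeded the control median, and 4 lay below every control array.

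Other lid genes moved by similar amounts in either direction without passing the test. PSMD14, the deubiquitinase of the lid, ranged from 11.49 to 11.71 (median 11.63) in knockdown arrays and from 11.64 to 11.74 (median 11.70) in control arrays, with a fold change of -0.08 ± 0.04 (limma adjusted p = 0.399). PSMD11, a lid subunit that promotes assembly of the whole proteasome, ranged from 9.54 to 9.73 (median 9.61) in knockdown arrays and from 9.63 to 9.91 (median 9.69) in control arrays (-0.08 ± 0.05, adjusted p = 0.461). Both had 4 knockdown arrays below the control range, and without control 5 PSMD11 was -0.05. PSMD12, a structural lid subunit, ranged from 11.67 to 11.95 (median 11.80) in knockdown arrays and from 11.68 to 11.80 (median 11.71) in control arrays (0.09 ± 0.05, adjusted p = 0.402). PSMD3, also structural, ranged from 9.59 to 9.82 (median 9.69) in knockdown arrays and from 9.47 to 9.70 (median 9.61) in control arrays (0.09 ± 0.06, adjusted p = 0.452). Above the control range lay 3 knockdown arrays of PSMD12 and 2 of PSMD3. The 6 lid genes split into 3 above and 3 below 0, with a median of -0.03.

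The assembly chaperones hold rings or ATPases together until the particle forms and then leave. All 3 chaperones of the base, PSMD5, PSMD9 and PSMD10, were above 0. PSMD9 had the largest estimate of the 43 genes, and only PSMB9 and PSMC3IP had wider intervals. It ranged from 7.32 to 7.72 with a median of 7.61 in knockdown arrays and from 7.20 to 7.65 with a median of 7.45 in control arrays (0.15 ± 0.09, limma adjusted p = 0.449), or 10.6% higher with a 95% interval from -2.73% to 25.7%. Only 2 knockdown arrays exceeded the control range. The core particle chaperones PSMG1 to PSMG4 lay between -0.01 and 0.06. PSMG1 ranged from 11.85 to 12.01 with a median of 11.96 in knockdown arrays, and from 11.86 to 11.93 with a median of 11.89 in control arrays (0.05 ± 0.03, adjusted p = 0.515). On 5 knockdown arrays PSMG1 was above every control array, and on knockdown 6 it was below all of them.

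Alternative caps open the core particle without ubiquitin. PSME1 and PSME2, which form the interferon-inducible cap, differed by -0.03 and -0.02 (limma adjusted p = 0.748 for PSME1 and 0.861 for PSME2). PSME3, which forms the nuclear cap, differed by 0.05 (adjusted p = 0.717). PSME4, a large monomeric activator, ranged from 12.38 to 12.56 with a median of 12.46 in knockdown arrays, and from 12.31 to 12.43 with a median of 12.38 in control arrays. Its fold change was 0.08 ± 0.04 (adjusted p = 0.371), and 4 knockdown arrays exceeded every control array. The only named probe of the inhibitor gene PSMF1 was detected on no array. PSMA1 and PSMC6 also had a probe detected on no array, beside brighter probes that were detected. A second PSME1 probe was detected on 4 knockdown arrays and 0 control arrays and a second PSMG4 probe on 2 and 0. Neither was bright enough to set a fold.

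Fold changes of genes with and without the antioxidant response element core in the window were set side by side. The 12 genes with it had a median log2 fold change of 0.04, with 7 above 0. All detected genes had a median of 0.016, with 57.1% above 0. Among the 12 genes 0 were called, against 0.389% of all genes. The 24 genes with a window that lacked it had a median of -0.0087, with 10 above 0. PSMA4, PSMB3, PSME1, PSME2 and PSMG2, which hold the core, were below 0, from -0.03 to -0.01, and PSMD9 was the highest at 0.15. The printed genes were mostly chosen for a small p, so their estimates say nothing of the motif. Genes with the interferon response core had a median of -0.02 over 5 genes, from -0.06 for PSMB4 to 0.08 for PSMB10.

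Of the NFE2L1 pathway list, 11 of 14 genes with a named probe were detected, and 0 passed in either direction, against 0.389% of all genes. Of these, 7 were above and 4 below 0, where 57.1% of all genes were above. NFE2L1 itself ranged from 10.10 to 10.35 with a median of 10.23 in knockdown arrays, and from 9.96 to 10.10 with a median of 10.04 in control arrays. It was 0.20 ± 0.05 higher in knockdown cells, or 14.9% (limma adjusted p = 0.118), with 5 of 6 knockdown arrays above every control array. Knockdown 1 was the exception, and without that array the limma adjusted p was 0.0438 at a fold change of 0.23, while calls over all probes were 144 instead of 50. In the other 23 of 24 alternatives NFE2L1 did not pass. Over all 24, the fold change ran from 0.16 without knockdown 2 and knockdown 6 to 0.33 with median scaling, and the adjusted p reached 0.636. UBXN8, which tethers the extraction ATPase VCP to the endoplasmic reticulum, ranged from 6.86 to 7.08 with a median of 6.99 in knockdown arrays and from 7.20 to 7.55 with a median of 7.27 in control arrays. Its 2 groups did not overlap (-0.36 ± 0.07, limma adjusted p = 0.0554), but another UBXN8 probe differed by 0.03 ± 0.11 (limma adjusted p = 0.899). The fold change of the brighter probe was -0.18 without background correction and with the authors' processed values, and over 23 alternatives its adjusted p ran from 0.0538 to 0.427. UFD1, a cofactor of VCP, had a fold change of 0.24 ± 0.11 (adjusted p = 0.339) and DDI1, a relative of the protease that cleaves NFE2L1, of -0.21 ± 0.14 (adjusted p = 0.506). VCP itself differed by 0.0051. The median of the list was 0.02.

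**Figure D4:**
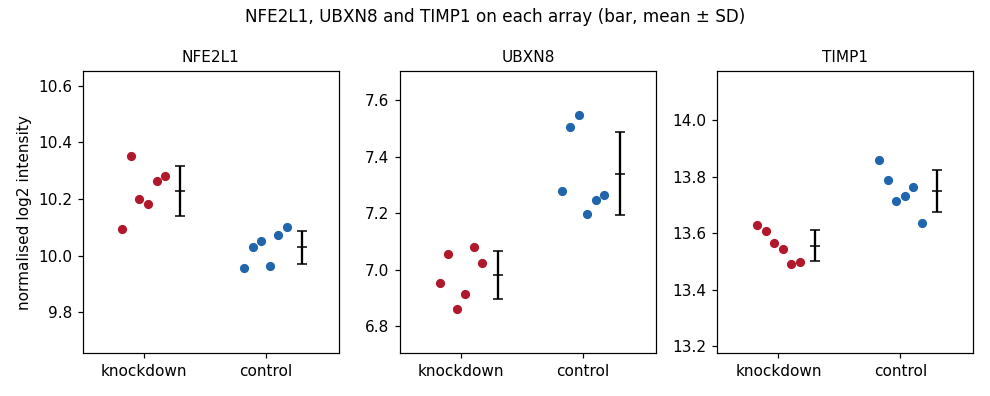
Normalised log2 intensity (y axis, the same span in each panel) of NFE2L1, UBXN8 and TIMP1, knockdown arrays at left and control arrays at right; points are arrays, replicates 1 to 6 from left to right, and bars give the mean ± SD. NFE2L1 overlaps only through knockdown 1, while UBXN8 and TIMP1 do not overlap.

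The remaining proteasome partners outside the PSM symbols gave 0 calls among 13 detected genes, against 0.389% of all genes. Above 0 were 9 and below 0 were 4, with a median of 0.03, beside 57.1% above 0 and a median of 0.016 for all genes. POMP, which completes the maturation of the core particle, was 0.10 lower on average (-0.10 ± 0.05, limma adjusted p = 0.381), with 5 of 6 knockdown arrays below every control array. The other 3 with the smallest p were AKIRIN2, a nuclear import factor of proteasomes, at -0.05 ± 0.04 (adjusted p = 0.533), USP14, a deubiquitinase bound to the regulatory particle, at 0.08 ± 0.06 (adjusted p = 0.550), and the small heat shock protein gene HSPB1 at 0.07 ± 0.06 (adjusted p = 0.581).

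Among ubiquitin genes and shuttle receptors, 9 genes were detected and 0 passed, against 0.389% of all genes. Above 0 were 6 and below 0 were 3, with a median of 0.0099, where all genes had 57.1% above 0. The smallest p values were those of BAG6, a chaperone of mislocalised proteins, at 0.14 ± 0.09 (limma adjusted p = 0.472, while its other probe had -0.12 ± 0.05, unadjusted p = 0.0289 and adjusted p = 0.294), UBA1, the main ubiquitin-activating enzyme, at -0.06 ± 0.04 (adjusted p = 0.526), RAD23B, a shuttle receptor, at 0.06 ± 0.06 (adjusted p = 0.687), and UBQLN2, another shuttle receptor, at -0.05 ± 0.05 (adjusted p = 0.711).

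The interferon and antigen processing list, which is linked to the immunoproteasome, had 10 of 14 genes with a named probe detected and 0 passing, against 0.389% of all genes. Above 0 were 4 and below 0 were 6, with a median of -0.01, where all genes had 57.1% above 0. IRF1, an interferon-induced activator of PSMB9, was 0.10 ± 0.05 higher (limma adjusted p = 0.336), with 4 knockdown arrays above every control array. TAP1, the peptide transporter gene that shares a promoter region with PSMB9, differed by -0.0018 ± 0.03 (adjusted p = 0.986). TAPBP, the bridge between the transporter and class I molecules, differed by -0.09 ± 0.07 (adjusted p = 0.551). CANX, a chaperone of class I heavy chains, had -0.07 ± 0.06 (limma adjusted p = 0.615), while its other probe had 0.01 ± 0.03 (limma adjusted p = 0.894). IRF9, part of the interferon-activated factor ISGF3, had -0.11 ± 0.11 (limma adjusted p = 0.671).

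Subunit genes of a complex can vary together between samples, and this was described after the group means had been removed. Over the 12 arrays, the 820 pairs of the 41 detected proteasome genes had a median Pearson r of 0.011, with quartiles of -0.23 and 0.26. Pairs of a proteasome gene and any other detected gene had a median of 0.00086, with quartiles of -0.25 and 0.26. The 82 pairs within 1 structural role had a median of 0.0046. The highest pair was PSMB7 with PSME2 at 0.90. Pairs between -1 and -0.9 made up 0.122% of the proteasome pairs, the same share as those between 0.9 and 1. Pairs with another detected gene had shares of 0.019% and 0.024% there. Among 820 pairs such shares rest on very few pairs. All pairs share the same 12 arrays and the same normalisation, so the pairs are not independent. 

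**Figure D5:**
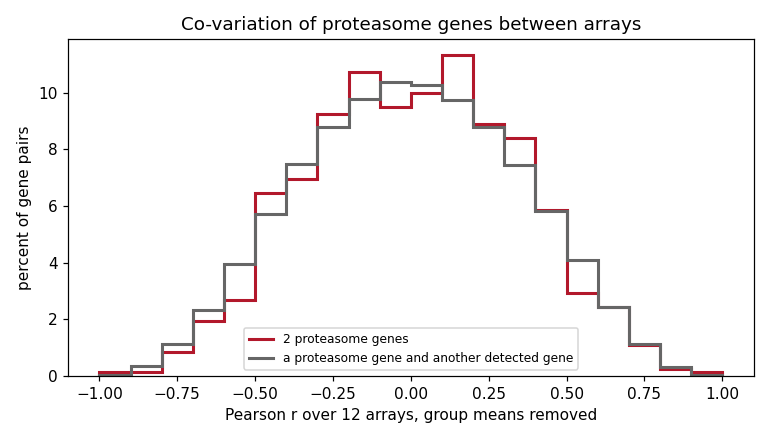
Share of gene pairs (y axis, percent) by Pearson r over 12 arrays with group means removed (x axis, bins of 0.1); the red line shows the 820 pairs of proteasome genes and the grey line the 399217 pairs of a proteasome gene and another detected gene. Both lie around 0, with medians of 0.011 and 0.00086.

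The detected proteasome genes were also averaged on each array. The mean deviation of the members from their own mean over all arrays ran from -0.02 to 0.04 in knockdown arrays and from -0.0096 to 0.01 in control arrays. Knockdown 3 was the highest of all and knockdown 2 the lowest. Over all detected genes the mean deviation was 0.0050 on knockdown 3 and 0.02 on knockdown 2, the highest of the arrays. By role, knockdown 2 had the highest mean of the inducible cutting subunits, 0.13, and the lowest of the alpha ring, -0.10. Knockdown 2 and knockdown 6 had the 2 highest numbers of detected probes, and the part of that number in the deviations was not tested. Without these 2 arrays, the fold changes were 0.06 for PSMB8, 0.02 for PSMB9 and 0.08 for PSMB10. In that setting 0 of 63 member probes were called, against 2 of 16495 probes. Of the 16 members given in full, 5 moved by over 1.5 times without the 2 arrays. These were PSMB6 at 0.05, PSME4 at 0.04, PSMD3 at 0.06, PSMB9, and PSMB7 at 0.00045. With the number of detected probes as a covariate, 7 of the 16 did so. PSMB6 was then at 0.05, PSME4 at 0.04, PSMD3 at 0.05, PSMD14 at -0.04, PSMD11 at -0.03, PSMB9 at -0.05 and PSMB7 at -0.0052.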

How the data were processed

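The authors deposited linear signal intensities and a detection p-value for each probe and array in a non-normalised table, per the file headers. The sources used here do not say how the detection p-values were made. A second deposited table held intensities that equalled a quantile normalisation of the first to within 3.33e-10 of their size, with a median of 188.8 in every column. It was used as an alternative. Per the submitters' processing notes, limma was used, with no role or version given.

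Signals were background corrected, quantile normalised and put on the log2 scale with neqc of limma 3.58.1 in R 4.3.3 (offset 16), where detection p-values stood in for negative control probes. The offset pulls the fold changes of dim probes towards 0. A shift shared by every probe would be lost in the quantile step. Of 47323 probes, 16495 were detected. In the platform annotation 30113 probes had 1 gene symbol, 8 had several and 17202 were unnamed here. Groups came from the sample titles. Each probe was tested with lmFit and eBayes, group as the only term, two-sided, with Benjamini-Hochberg adjustment over all detected probes. The procedure was tested on simulated data.

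Low, median and high values were given for any called member, the 6 cutting subunits and the 12 member genes with the smallest p. For each related list, any called gene and the 4 with the smallest p were named. Members, lists and tests were chosen with earlier results of these data known. PSMB3, PSMA3, VCP, TAP1 and members named at the ends of a range or for a promoter motif were named outside this rule, after their values were seen. Deviations of same-numbered knockdown and control arrays correlated weakly or not at all (r from -0.11 to 0.19), with 0.16, 0.19 and 0.18 for numbers 2, 5 and 6. Replicate numbers were not used as pairs in the main test, and a batch shared by some numbers was not tested. No 2 arrays held identical signals, and correlations between arrays ran from 0.976 to 0.993. Slides and scan dates were not given in the sources used here. Alternatives covered background correction, normalisation, the filter, the variance model, the threshold, probe choice, the number of detected probes and leaving out arrays. Probe choice was varied for the member genes' median alone. The within-array differences therefore rest on the brightest detected probes. Figures were drawn with matplotlib 3.10.9.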

Additional observations from a re-analysis of the deposited data

Results flagged for a closer look

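Both groups of 6 arrays were examined for the 16 member genes given in full, TIMP1, NFE2L1, UBXN8 and the 3 within-array differences of cutting subunits. Of these 44 groups, 2 held a value whose gap to its neighbour, as a share of the group's range, exceeded Dixon's critical value at 95%. Chance gives about 1 in 20. PSMD4 on knockdown 4 was the lowest of its group at 11.94, with the next at 12.16. PSMD11 on control 5 was the highest of its group at 9.91, with the next at 9.71.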

How the results depend on the processing

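In all 25 alternatives run, 0 member probes passed, with the smallest adjusted p between 0.142 and 0.706. At the stricter threshold of 0.01 this count was fixed by the main result. Calls over all probes ran from 1 to 144 when 1 array was left out. They were 0 with the number of detected probes as a covariate, which gave the 0.706, and 90 with an intensity trend and robust fit. They were 1 at an adjusted p under 0.01, 2 without knockdown arrays 2 and 6, and 11 with median scaling. Where so few of 16495 probes were called, a member count of 0 says little about the members. The member genes' median was 0.13 with scaling by the median alone, which moved the median of all genes to 0.13 as well. It was -0.0065 with detection under 0.01 on all 12 arrays, which drops the genes PSMD9, PSMB9 and PSME3IP1, and -0.0059 with the mean of all probes. Leaving out 1 array gave -0.0055 to 0.018, below 0 without knockdown 3 or knockdown 6. PSMB9 minus PSMB6 changed sign in 14 of its 21 alternatives. It was -0.0323 without background correction, -0.0219 with normexp at offset 50, -0.0235 with cyclic loess, -0.000300 with median scaling and -0.0325 with the authors' processed values. It was -0.0387 without knockdown arrays 2 and 6, -0.10 with the number of detected probes as a covariate, and -0.0362 to 0.0442 when 1 array was left out, below 0 in 7 of 12 cases. The cause was not tested. Median scaling turned 4 genes above 0, PSMD6 (0.038), PSMD4 (0.025), PSMD14 (0.055) and PSMD11 (0.044). Relative to the shift of all genes they stood at -0.09, -0.10, -0.07 and -0.08. On that relative scale PSMB6 and PSMB9 were at 0.03, PSMD9 at 0.07, PSMA6 and PSMB5 at 0.02 and PSMB7 at -0.02. PSMB10 and PSME4 were at 0.08, PSMD12 at 0.09, PSMD3 at 0.10, PSMG1 at 0.06 and PSMB8 at 0.07. With the number of detected probes as a covariate PSMB9 was -0.049 and PSMB7 -0.0052. With the replicate block the member count was 0 and the smallest adjusted p 0.349, calls over all probes were 28 instead of 50, and 2 of 6 knockdown arrays correlated best with the control of their own number. TIMP1 had adjusted p of 0.0449 with the strict filter and 0.0249 with an intensity trend and robust fit, but did not pass in the other 22 of 24 alternatives, where the adjusted p reached 0.517, and was -0.12 with median scaling (-0.25 relative to all genes). PSMD9 was 0.078 without background correction and with the authors' values. Depth is not defined for arrays. Dim probes such as those of PSMD9 and PSMB9 had the widest intervals.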
